A study of Mus musculus with 10 samples.

Results

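The interaction of dose and time asks, gene by gene, whether the change from 1 h to 2 h after Kdo2-lipid A differed between 10 nM and 0.03 nM. For each gene the log2 change from 1 h to 2 h at 0.03 nM was subtracted from the log2 change from 1 h to 2 h at 10 nM, using the counts of the 8 stimulated libraries. A gene called higher had a positive difference of differences, and a gene called lower a negative one, at an adjusted p below 0.05. All 12819 of 23284 genes with enough counts were tested. Of the rest, 6399 had no count in these 8 libraries and 4066 had too few to pass the filter. Macrophages were grown from the bone marrow of C57BL/6J mice for 6 days in macrophage colony-stimulating factor at 30 ng/ml. They stayed untreated, or Kdo2-lipid A was added at 0.03 nM for 1 h, 0.03 nM for 2 h, 10 nM for 1 h or 10 nM for 2 h. Each of the 5 groups held 2 libraries of polyadenylated RNA, 1 from each of 2 experiments, 10 in all. No group carried a genetic change, and the labels do not say how many animals gave cells to each experiment. The untreated libraries carry no weight in the interaction, but the scaling factors were computed over all 10 libraries, these included. Their levels are shown as the starting level only.

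Kdo2-lipid A is the part of bacterial lipopolysaccharide that binds Toll-like receptor 4 (TLR4) with its partner MD-2. From the cell surface the receptor signals through MyD88 to NF-kB and MAP kinases, which switch on immediate-early genes, cytokines and chemokines within minutes, together with inhibitors that later damp them. From endosomes it signals through TRIF to IRF3 and the interferon-beta gene, and secreted interferon then acts back on the cells through its own receptor to raise interferon-stimulated genes.

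The stimulated libraries held 33179599 to 42167096 counts. Scaling factors (TMM, the trimmed mean of M values) were 0.775 to 0.897 in the 10 nM libraries and 1.09 to 1.15 in the 0.03 nM libraries. The 7 macrophage markers (among them Csf1r, Cd68 and Lyz2) summed to between 22970 and 29573 CPM, each gene's counts relative to the scaled library total, in the 10 libraries, and none of them was called. Panels of 3 markers each for T and NK cells, erythroid cells and mast cells summed to 0.328 CPM or less; Lck, which the T and NK panel does not hold, is given below. The 4 dendritic markers summed to 2.70 to 6.53 CPM in the first 4 groups and to 8.96 to 10.2 CPM at 10 nM 2 h, and the 3 B cell markers to 0.845 to 3.97 CPM over all libraries. The 7 neutrophil markers summed to 18.4 to 29.2 CPM in the first 4 groups and to 30.7 to 37.6 CPM at 10 nM 2 h, and the 6 stromal and endothelial markers to 23.2 to 74.2 CPM over all libraries. The 0.03 nM 2 h libraries stood apart. The log2 difference between their experiments had an SD over genes of 0.305, against 0.203 to 0.242 in the other groups, and a Spearman correlation with exonic length of -0.610, against -0.0156 to 0.290. In the 0.03 nM 1 h pair, many induced genes were higher in experiment 2 than in experiment 1, as the values below show. Counts without a 0.03 nM 2 h library are therefore given beside the main counts.

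Promoters of 6 genes are printed because their genes stand for the 2 main patterns of the interaction: 3 genes that rose late at 10 nM and 3 that fell from an early peak there. In each gene only the motif named for it was marked. Where a gene had several starts, a window that held this motif was taken, so the matches shown were selected for. Each line holds the 120 bases before the annotated start, on the gene's strand, from RefSeq on GRCm38.p6, with capitals marking the motif. In Igtp (chr11:58199436-58199555, plus strand), Gbp3 (chr3:142559924-142560043, plus strand) and Socs1 (chr16:10785537-10785656, minus strand) the capitals mark GAAANNGAA, the core of the interferon-stimulated response element, on either strand. Gbp3 and Socs1 each hold 2 overlapping matches.
Igtp: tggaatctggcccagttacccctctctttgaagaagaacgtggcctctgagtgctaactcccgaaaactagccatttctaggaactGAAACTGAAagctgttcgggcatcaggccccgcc
Gbp3: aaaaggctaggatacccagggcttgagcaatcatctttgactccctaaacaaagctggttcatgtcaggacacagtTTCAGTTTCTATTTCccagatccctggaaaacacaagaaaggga
Socs1: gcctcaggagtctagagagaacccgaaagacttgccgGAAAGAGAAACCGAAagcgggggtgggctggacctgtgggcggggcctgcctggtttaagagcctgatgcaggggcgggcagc

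In Cxcl1 (chr5:90891125-90891244, plus strand) and Cxcl2 (chr5:90903779-90903898, plus strand) the capitals mark GGANNTTCC, a kappa B form that NF-kB dimers bind. In Dusp8 (chr7:142095285-142095404, minus strand) they mark TGACGTCA, the cyclic AMP response element, of which Dusp8 holds 2 copies.
Cxcl1: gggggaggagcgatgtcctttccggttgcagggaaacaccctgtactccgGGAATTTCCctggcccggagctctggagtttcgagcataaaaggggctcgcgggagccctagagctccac
Cxcl2: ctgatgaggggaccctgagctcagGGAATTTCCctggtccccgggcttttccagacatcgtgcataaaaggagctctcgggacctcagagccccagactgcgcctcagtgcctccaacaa
Dusp8: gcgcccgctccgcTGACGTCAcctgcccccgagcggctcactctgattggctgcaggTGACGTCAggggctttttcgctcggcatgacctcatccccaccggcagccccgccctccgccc

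Motifs were searched on both strands in windows of 300 bases, 250 before to 50 after each start, and none of the motifs contains another. Windows of the lists came from 27 of 38 interferon-stimulated genes, 11 of 19 chemokines and 15 of 18 NF-kB feedback genes. They also came from 25 of 30 immediate-early genes and 15 of 17 MAP kinase phosphatases and feedback inhibitors. The interferon core was in 17 of 32 windows of the interferon-stimulated genes (53.1%), in 11.3% of the windows of genes called higher, in 5.04% of those of genes called lower, in 7.36% of the 12792 windows of genes tested and in 8.56% of all 32851 windows of the table. The kappa B form was in 5 of 11 chemokine windows (45.5%), in 35.0% of windows of NF-kB feedback genes, in 4.71% of windows of genes tested and in 4.26% of all windows. It was in 4.81% of windows of genes called higher and 4.7% of those of genes called lower, both near the share of genes tested. Among genes called lower that rose at 0.03 nM it was in 11.9% of windows, and among interferon-stimulated genes in 18.8%. TGACGTCA was in 3 of 16 windows of the MAP kinase phosphatases and feedback inhibitors (18.8%), in 2.99% of windows of genes tested and in 1.79% of all windows. Genes called higher had it in 1.89% of windows, genes called lower in 3.34% and immediate-early genes in 9.68%. TGANTCA, the AP-1 form, was in 5.99% of windows of genes called higher, 5.04% of those of genes called lower, 5.43% of those of genes tested and 7.81% of all windows. It was also in 3 of the 11 chemokine windows (27.3%), in 7 of the 32 of the interferon-stimulated genes (21.9%) and in none of the immediate-early genes. CCATATTAG, a serum response factor form, was in 34 windows of the whole table and in none of the immediate-early genes. These are matches of letters, not binding sites.

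The interaction was called for 2530 genes, 19.7% of those tested. Of these 1213 (9.46%) were higher and 1317 (10.3%) lower in edgeR's quasi-likelihood test with Benjamini-Hochberg adjustment, which leaves 4 residual degrees of freedom. A difference of at least 2-fold in the fold changes was seen in 539 genes called higher (4.20%) and 487 called lower (3.80%). The median interaction over all genes tested was -0.02 on the log2 scale. Scaling by library totals in place of TMM moved that median to -0.15 and gave 946 genes higher and 1996 lower, so that 32.2% of the calls were higher in place of 47.9%. Leaving out the experiment 1 library at 0.03 nM 2 h gave 1722 higher and 1578 lower, and leaving out that of experiment 2 gave 1371 and 2008. No gene was called in the opposite direction in any of these fits. The values are levels of RNA in whole cultures, so fewer cells of a state and less RNA per cell cannot be told apart. P-values measure the spread between 2 libraries a group, which the labels assign to separate experiments.

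Most of the interaction came from genes that moved at 10 nM and were not called at 0.03 nM. Between 1 h and 2 h, 506 genes (3.95%) were called at 0.03 nM, 372 that rose (2.90%) and 134 that fell (1.05%), against 5191 genes (40.5%) at 10 nM, 2582 that rose (20.1%) and 2609 that fell (20.4%). Of the genes called higher, 1117 (92.1%) rose at 10 nM with no call at 0.03 nM, 49 rose at both doses, and 10 fell at 0.03 nM and rose at 10 nM. Of those called lower, 1086 (82.5%) fell at 10 nM with no call at 0.03 nM and 66 fell at both doses. A smaller class of 132 lower genes rose at 0.03 nM. Among these 60 had no call at 10 nM, 41 fell at 10 nM, and 31 rose at both doses but by more at 0.03 nM. The calls at 0.03 nM depend on single libraries: without the experiment 1 library at 0.03 nM 2 h, 1230 genes rose and 1380 fell at 0.03 nM, without that of experiment 2 89 fell, and without the experiment 1 library at 0.03 nM 1 h 182 rose and 37 fell.

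**Figure D1:**
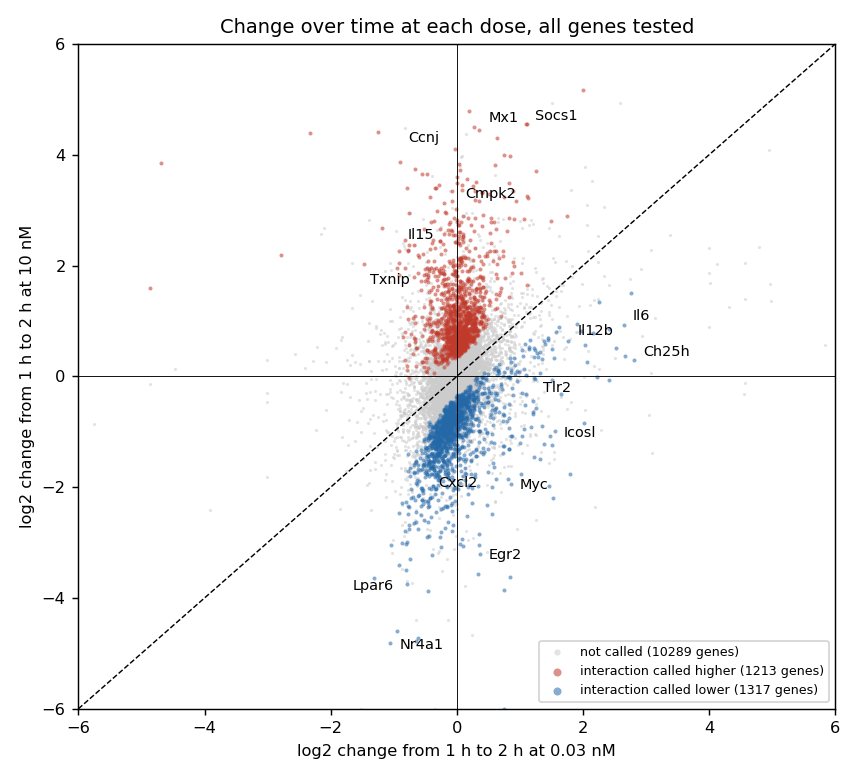
Log2 change from 1 h to 2 h at 0.03 nM (x axis) and at 10 nM (y axis) for the 12819 genes tested, with the 1213 genes called higher in red and the 1317 called lower in blue; values past the axis ends are drawn at the edge, and the dashed line marks equal changes. Called genes lie mostly along the vertical axis, where the change at 0.03 nM is near 0, and a smaller blue group to the right holds the genes that rose at 0.03 nM.

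Interferon-stimulated genes had positive interactions. All 38 members tested had a positive value, with a median of 1.54 against -0.02 over all genes. Of these 20 were called higher and none lower (52.6% called, against 19.7% of all genes tested). This list and those below were chosen with earlier results of these data known. Their shares above 19.7% are therefore a description and no independent support. At 10 nM 32 of the 38 rose between 1 h and 2 h, and at 0.03 nM 1 did, against 20.1% and 2.90% of all genes tested. The ratio of 10 nM to 0.03 nM had a log2 median of 0.12 at 1 h and 2.05 at 2 h. At 1 h 11 of the 38 (28.9%) were already called higher at 10 nM, against 17.0% of all genes tested. At 2 h 32 were, against 25.1%. None was lower at either time, against 16.2% of all genes tested at 1 h and 26.2% at 2 h. Mx1, an interferon-induced dynamin-like GTPase, was at 52.6 and 128 CPM at 0.03 nM 1 h in experiments 1 and 2, 109 and 123 CPM at 0.03 nM 2 h, 69.5 and 105 CPM at 10 nM 1 h, and 1753 and 2072 CPM at 10 nM 2 h. Only the 10 nM 2 h pair stood far above the rest: the other 6 libraries lay between 52.6 and 128 CPM, and the untreated cells were at 47.5 and 70.1 CPM. Its interaction was 4.09 (SE 0.64, adjusted p = 0.00993).

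Cmpk2, a mitochondrial nucleotide kinase that interferon induces, was at 59.6 and 112 CPM at 0.03 nM 1 h, 88.4 and 83.1 CPM at 0.03 nM 2 h, 160 and 183 CPM at 10 nM 1 h, and 1718 and 2132 CPM at 10 nM 2 h. Its interaction was 3.49 (SE 0.41, adjusted p = 0.00192), an 11.2-fold difference between the 2 fold changes. Igtp, an immunity-related GTPase whose promoter is printed above, was at 30.4 and 51.3, then 39.6 and 47.6 CPM at 0.03 nM, and at 40.9 and 45.1, then 303 and 336 CPM at 10 nM. All libraries but the 10 nM 2 h pair overlapped, and the interaction was 2.80 (SE 0.32, adjusted p = 0.000908). Gbp3, a guanylate-binding protein, already differed between doses at 1 h, with 104 and 109 CPM at 10 nM against 32.2 and 49.3 CPM at 0.03 nM, and reached 342 and 393 CPM at 10 nM 2 h against 50.9 and 51.3 CPM. Its interaction was 1.46 (SE 0.24, adjusted p = 0.00307).

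The number of interferon-stimulated genes called rests on single 0.03 nM libraries. Without either library at 0.03 nM 2 h 3 of the 38 were called, without the experiment 1 library at 0.03 nM 1 h 36 were, and with the experiment as a block 33 were. Keeping genes of low count in the fit gave 12. Mx1 then had an adjusted p of 0.0795 or 0.0736 without one or the other 0.03 nM 2 h library, and Gbp3 of 0.0735 or 0.0770, while their log2 values stayed at 4.0 and 4.16 and at 1.45 and 1.44. The median interaction of the list was 1.14 in experiment 1 and 1.81 in experiment 2. Ifnb1, which encodes interferon-beta itself, went the other way. It was at 0.289 and 0.383 CPM at 0.03 nM 1 h, 0.438 and 0.741 CPM at 0.03 nM 2 h, 103 and 94.0 CPM at 10 nM 1 h, and 32.9 and 46.3 CPM at 10 nM 2 h. It thus fell at 10 nM while the genes that interferon induces rose, with an interaction of -2.14 (SE 0.46, adjusted p = 0.00951), which was not called without the experiment 2 library at 0.03 nM 2 h (-1.71, adjusted p = 0.162) or in limma voom (adjusted p = 0.0769).

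Among the genes of interferon induction and its receptors, 7 of 16 were called higher and 2 lower, and 3 to 8 were higher when 1 library was left out. The share of this list called was 56.2%, against 19.7% of all genes tested. Socs1, which inhibits JAK kinases, was at 0.723 and 2.23, then 3.20 and 3.11 CPM at 0.03 nM, and at 6.27 and 6.05, then 137 and 154 CPM at 10 nM. The 10 nM 2 h libraries were far above all others, and the interaction was 3.47 (SE 0.49, adjusted p = 0.00272). Irf8, a transcription factor of the myeloid lineage, went in opposite directions at the 2 doses. It fell at 0.03 nM from 266 and 262 to 192 and 202 CPM and rose at 10 nM from 199 and 195 to 457 and 518 CPM, with no overlap between the doses at either time. The interaction was 1.73 (SE 0.12, adjusted p = 1.36e-05). Irf1, an activator of interferon-responsive genes, rose at 10 nM from 982 and 905 to 1823 and 1748 CPM and stood at 188 and 228, then 224 and 228 CPM at 0.03 nM, with an interaction of 0.80 (SE 0.14, adjusted p = 0.00266).

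The largest positive interactions that are named here belong to Tgtp1, Lipg, E130102H24Rik, Ccnj and Mx1, at 4.60, 4.22, 4.21, 4.12 and 4.09. Tgtp1, an interferon-inducible GTPase, was at 0.241 to 0.431 CPM in the other 6 stimulated libraries and at 5.81 and 11.9 CPM at 10 nM 2 h. It shares 2809 exonic bases, its whole exonic length, on the same strand with Tgtp2, so that reads of the pair cannot be told apart with certainty. Lipg, an endothelial lipase, was at 0.145 to 0.359 CPM at 0.03 nM, 1.53 and 2.30 CPM at 10 nM 1 h, and 38.3 and 49.0 CPM at 10 nM 2 h. Lipg was already higher at 10 nM than at 0.03 nM at 1 h, 7.54-fold. Il15, a cytokine that sustains NK and memory T cells, was at 24.4 and 25.8, then 21.4 and 21.8 CPM at 0.03 nM, and at 40.9 and 42.7, then 212 and 224 CPM at 10 nM. Its replicates agreed closely and its interaction was 2.60 (SE 0.12, adjusted p = 4.01e-06). Il15ra, the receptor chain that presents it, was at 2.72 and 3.78, then 2.68 and 2.20 CPM at 0.03 nM, and at 3.73 and 5.60, then 39.1 and 49.5 CPM at 10 nM, with an interaction of 3.66 (SE 0.33, adjusted p = 8.60e-05).

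Genes outside the interferon lists also rose late at 10 nM. Of 25 effector genes 6 were called higher and 3 lower, with a median of 0.45; with the experiment as a block 10 were higher, and 5 to 11 when 1 library was left out. In the main fit 36% of the effector genes were called, against 19.7% of all genes tested. Mmp13, a collagenase, rose at 10 nM from 116 and 146 to 854 and 1039 CPM and was at 5.33 to 10.1 CPM in the 0.03 nM libraries. Among the glycolysis genes 4 of 22 were called higher and none lower, 18.2% called, near the 19.7% of all genes tested. Hk2, a hexokinase, fell at 0.03 nM from 83.4 and 86.5 to 67.6 and 52.3 CPM and rose at 10 nM from 90.7 and 92.5 to 292 and 311 CPM, with an interaction of 2.22 (SE 0.16, adjusted p = 1.55e-05). Pfkfb3, which makes the activator of phosphofructokinase, had 2.14 and Pfkp, a phosphofructokinase whose exons overlap Pitrm1 on the opposite strand, 1.45. Hif1a had 0.49 (adjusted p = 0.0441), and 0.0570 with the experiment as a block; it was also not called when any of 6 single libraries was left out. Il4ra, the interleukin-4 receptor chain, rose at 10 nM from 218 and 232 to 1189 and 1220 CPM and was at 174 to 207 CPM at 0.03 nM, with an interaction of 2.46 (SE 0.15, adjusted p = 6.58e-06). Map3k8, the kinase that couples NF-kB signalling to ERK, was at 45.5 to 61.6 CPM in the other 6 stimulated libraries and at 207 and 198 CPM at 10 nM 2 h.

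**Figure D2:**
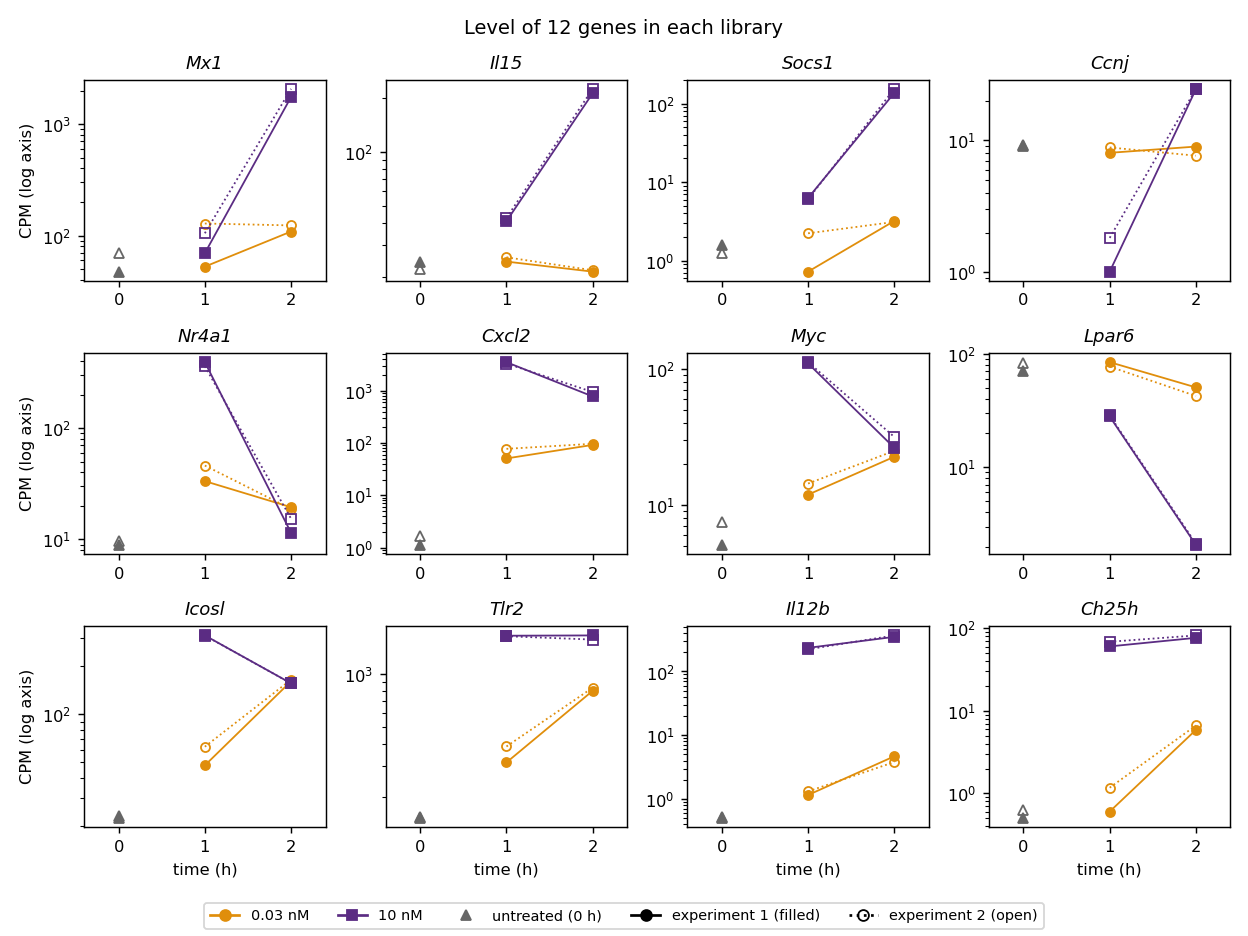
Level in CPM (log axis, own range in each panel) of 12 genes in each library against time, with untreated cells at 0 h, 0.03 nM as circles, 10 nM as squares, experiment 1 filled and experiment 2 open. The first 4 genes rise late at 10 nM, the next 4 fall at 10 nM, and of the last 4 Icosl, Tlr2 and Ch25h rise at 0.03 nM and fall or have no called change at 10 nM, and Il12b rises at both.

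Immediate-early genes gave the opposite pattern. Of 30 members 22 were called lower and 1 higher, the median was -1.09, and leaving out 1 library at a time gave 16 to 21 lower. In the main fit 76.7% of the list was called, against 19.7% of all genes tested. At 10 nM 21 of the 30 fell between 1 h and 2 h and none rose, while at 0.03 nM 7 fell and 4 rose. Over all genes tested 20.4% fell and 20.1% rose at 10 nM, and 1.05% fell and 2.90% rose at 0.03 nM. At 1 h 27 were higher at 10 nM than at 0.03 nM, and at 2 h 18 were still higher and 6 were lower. Over all genes tested 17.0% were higher at 10 nM at 1 h, and at 2 h 25.1% were higher and 26.2% lower. Nr4a1 (chromosome 15, 101097277 to 101105225 on mm9), an orphan nuclear receptor, was at 33.4 and 46.2 CPM at 0.03 nM 1 h, 19.5 and 18.8 CPM at 0.03 nM 2 h, 393 and 361 CPM at 10 nM 1 h, and 11.4 and 15.3 CPM at 10 nM 2 h. The order of the doses turned over: 10 nM was above 0.03 nM at 1 h and below it at 2 h, with no overlap at either time. Its interaction was -3.76 (SE 0.24, adjusted p = 2.13e-05), the largest negative value named here.

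Egr2 (chromosome 10, 67000617 to 67004936 on mm9), a zinc finger factor, was at 19.4 and 18.8, then 24.9 and 24.3 CPM at 0.03 nM, and at 457 and 442, then 40.5 and 57.4 CPM at 10 nM. Its interaction was -3.57 (SE 0.20, adjusted p = 6.58e-06). Myc, the growth-promoting transcription factor, rose at 0.03 nM from 12 and 14.4 to 22.7 and 25.1 CPM and fell at 10 nM from 110 and 112 to 26.4 and 31.7 CPM. The log2 ratio of the doses was 3.08 at 1 h and 0.28 at 2 h, where it was not called. Plk3, a stress-responsive kinase, was at 5.59 and 6.25, then 7.80 and 7.32 CPM at 0.03 nM, and at 13.3 and 13.6, then 1.64 and 1.61 CPM at 10 nM. The order turned over here too, with an interaction of -3.4 (SE 0.21, adjusted p = 6.59e-06). Its exons overlap Tctex1d4 on the opposite strand, and whether counting used strand is not given in the sources used here. Btg2, an antiproliferative gene, fell at both doses, from 151 and 180 to 120 and 118 CPM at 0.03 nM and from 550 and 543 to 66.4 and 80.7 CPM at 10 nM.

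Fos was among the 3 members whose difference between doses was not called at 1 h. It was at 220 and 318, then 137 and 171 CPM at 0.03 nM, and at 165 and 187, then 17.5 and 25.5 CPM at 10 nM, with an interaction of -2.23 (SE 0.32, adjusted p = 0.00295). Egr1 fell at 0.03 nM from 17.3 and 22.8 to 7.47 and 8.61 CPM and at 10 nM from 217 and 233 to 14 and 22.3 CPM. Without the experiment 2 library at 0.03 nM 2 h the adjusted p was 0.0519 for Fos and 0.0512 for Egr1. Fosl2, a Fos relative, was the 1 immediate-early gene called higher, at 0.62; it is named because the count is 1, after its value was seen.

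Of 17 phosphatases and feedback inhibitors of MAP kinase signalling 8 fell and 5 rose at 10 nM, against 20.4% and 20.1% of all genes tested. The interaction was called for 52.9% of them, against 19.7% of all genes tested. In the interaction 8 were called lower and 1 higher, with a median of -1.06, and 7 to 10 were lower when 1 library was left out. Dusp8, a MAP kinase phosphatase with the printed promoter, was at 1.66 and 1.39, then 1.42 and 1.84 CPM at 0.03 nM, and at 15.6 and 14, then 1.25 and 2.29 CPM at 10 nM. At 2 h its doses overlapped, and its interaction was -3.17 (SE 0.38, adjusted p = 0.000273). Dusp4 rose at 0.03 nM from 14.9 and 16.6 to 30.5 and 24.9 CPM and fell at 10 nM from 71.5 and 66.6 to 15.9 and 22.6 CPM, so that the dose order turned over, with an interaction of -2.65 (SE 0.22, adjusted p = 4.82e-05). Errfi1, an inhibitor of the EGF receptor, fell at 10 nM from 1083 and 1143 to 509 and 589 CPM and stayed at 15.2 to 18.7 CPM at 0.03 nM. The member called higher was Rasa2, a Ras GTPase-activating protein, at 1.47, named after its value was seen. Dusp1, another MAP kinase phosphatase, was not called: it fell at 10 nM from 1122 and 1042 to 454 and 504 CPM and was at 55 and 91.8, then 43.4 and 51.9 CPM at 0.03 nM, with an interaction of -0.55 (SE 0.30, adjusted p = 0.276).

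Among 18 NF-kB feedback genes 6 were called lower and 1 higher (38.9% called, against 19.7% of all genes tested), with a median of -0.41. In this list 10 members rose at 0.03 nM between 1 h and 2 h and 11 rose at 10 nM, and 9 rose at both doses. Over all genes tested 2.90% rose at 0.03 nM and 20.1% at 10 nM. Nfkbid, an atypical IkB protein, fell at 10 nM from 142 and 134 to 43.5 and 45.5 CPM and was at 25.7 to 35.0 CPM at 0.03 nM. Tnip1, a partner of A20, rose at both doses, from 104 and 114 to 262 and 304 CPM at 0.03 nM and from 706 and 695 to 1116 and 1076 CPM at 10 nM. Its fold was larger at 0.03 nM, with an interaction of -0.73 (SE 0.13, adjusted p = 0.00307), while in CPM the rise was 221 larger at 10 nM. Tnip2 was the member called higher, at 1.08 (SE 0.13, adjusted p = 0.000336). Nfkbia, Tnfaip3 and Socs3, inhibitors that NF-kB or STAT3 induces, were not called, at -0.36, -0.50 and -0.53 (adjusted p = 0.115, 0.0851 and 0.405). Without the experiment 2 library at 0.03 nM 1 h the list had 10 lower, and with library totals also 10.

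**Figure D3:**
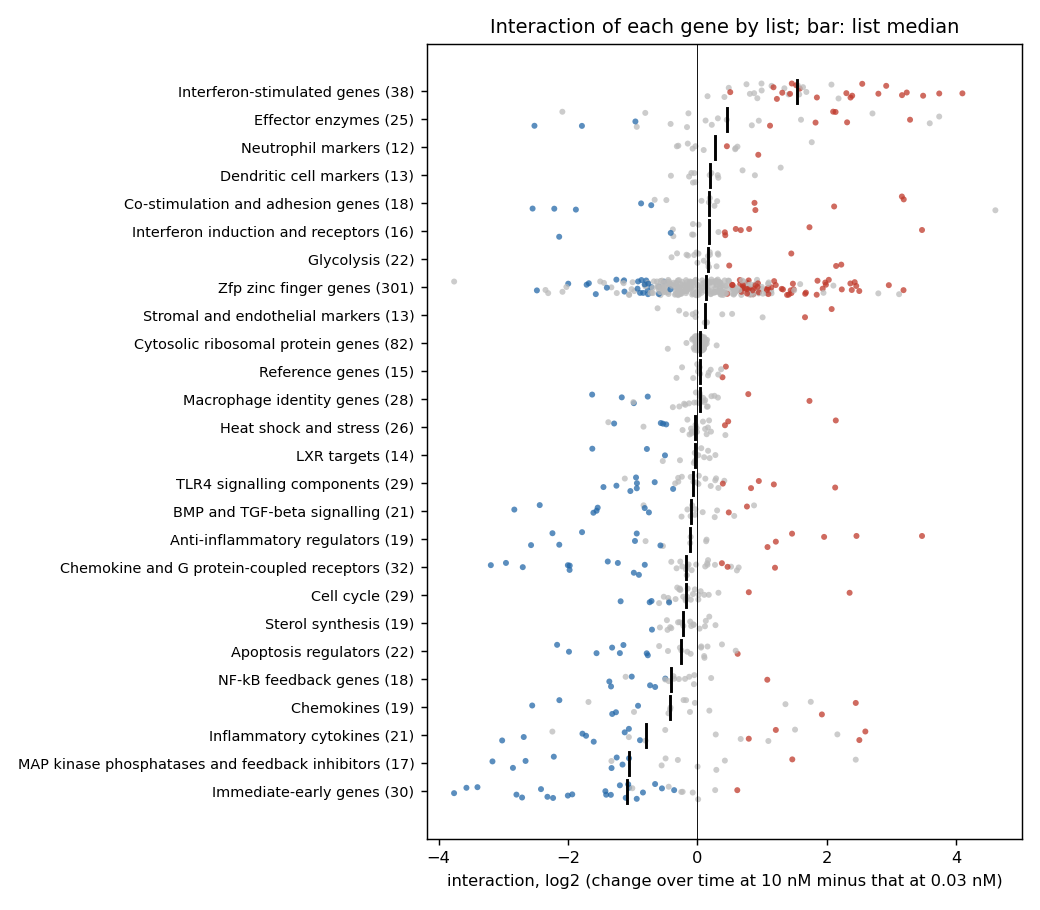
Interaction on the log2 scale of each gene in the lists with at least 10 genes tested (number in brackets), ordered by median (black bar), with genes called higher in red, called lower in blue and the rest in grey. Interferon-stimulated genes lie to the right with a median of 1.54, and immediate-early genes and MAP kinase phosphatases to the left with medians of -1.09 and -1.06.

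Cytokines split by time course. Of 21 inflammatory cytokines 8 were called lower and 4 higher, with a median of -0.80, and 4 to 10 were lower when 1 library was left out. All 21 were higher at 10 nM than at 0.03 nM at 1 h, and 20 at 2 h, against 17.0% and 25.1% of all genes tested. The interaction was called for 57.1% of the list in the main fit, against 19.7% of all genes tested. Tnf was at 130 and 187, then 222 and 243 CPM at 0.03 nM, and at 3832 and 3662, then 1854 and 1777 CPM at 10 nM, where it fell, with an interaction of -1.60 (SE 0.20, adjusted p = 0.00059). Osm, oncostatin M, fell at 10 nM from 19.5 and 20.6 to 4.43 and 4.79 CPM and was at 5.31 to 8.14 CPM at 0.03 nM, so that the doses lay close at 2 h, where their difference was not called. Csf2, granulocyte-macrophage colony-stimulating factor, had 4 counts in each 0.03 nM group, fell at 10 nM from 26.2 and 23.8 to 3.25 and 3.28 CPM, and had an adjusted p of 0.0359 that rose to at most 0.131 when any of 5 single libraries was left out. Tnfsf15, a cytokine of the TNF family, was among the 4 called higher, with 12.7 and 12.3, then 82.7 and 106 CPM at 10 nM and 2.36 to 4.57 CPM at 0.03 nM.

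Il6 and Il12b rose at both doses, with the larger fold at 0.03 nM and the larger rise in CPM at 10 nM. Il12b, the p40 chain of interleukin-12 and interleukin-23, rose from 1.16 and 1.32 to 4.68 and 3.80 CPM at 0.03 nM and from 234 and 222 to 349 and 367 CPM at 10 nM. Its interaction was -1.12 (SE 0.17, adjusted p = 0.00134) on the log2 scale and 126 CPM on the linear scale, and on the deposited rlog values it was not called (adjusted p = 0.116). Il6 rose from 0.0482 and 0.216 to 0.985 and 0.718 CPM at 0.03 nM and from 74.7 and 69.1 to 133 and 140 CPM at 10 nM, with an interaction of -1.72 (SE 0.44, adjusted p = 0.0202). It rests on 11 counts at 0.03 nM 1 h, and was not called without the experiment 1 library at 0.03 nM 1 h (-1.03, adjusted p = 0.119) or the experiment 1 library at 10 nM 1 h (adjusted p = 0.0547), nor in limma voom (adjusted p = 0.0724) or on rlog values (adjusted p = 0.931).

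Of 19 chemokines 5 were called lower and 2 higher, with a median of -0.42 (3 to 10 lower when 1 library was left out), and all 19 were higher at 10 nM than at 0.03 nM at both times. Of all 12819 genes tested 1774 were higher at 10 nM at both times. In the main fit 36.8% of the chemokines were called, against 19.7% of all genes tested. Cxcl2 (chromosome 5, 91332925 to 91334964 on mm9) and Cxcl1, which attract neutrophils and whose promoters are printed above, fell at 10 nM. Cxcl2 was at 3555 and 3348, then 783 and 952 CPM at 10 nM, and at 50.8 and 77.7, then 92.4 and 97.1 CPM at 0.03 nM, with an interaction of -2.55 (SE 0.26, adjusted p = 0.000265). Cxcl1 rose at 0.03 nM from 12.8 and 12 to 19.0 and 17.7 CPM and fell at 10 nM from 832 and 698 to 267 and 250 CPM, with an interaction of -2.13 (SE 0.15, adjusted p = 1.22e-05). The doses thus drew closer over time without meeting. Cxcl9, an interferon-induced attractant of T cells, rose at 10 nM from 5.87 and 7.74 to 76.7 and 100 CPM and was at 0.575 to 1.70 CPM at 0.03 nM, with an interaction of 2.45 (SE 0.39, adjusted p = 0.00179). Cxcl10, of the same family, rose at 10 nM from 1531 and 1422 to 4498 and 4763 CPM and was at 33 and 74.2, then 166 and 179 CPM at 0.03 nM. Its interaction was -0.04 (SE 0.48, adjusted p = 0.978), and the SE leaves room for a difference in either direction.

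Some panel genes were not called where the 0.03 nM 1 h pair disagreed. Il1b was at 71.1 and 142, then 125 and 138 CPM at 0.03 nM, and at 5172 and 5422, then 2859 and 3421 CPM at 10 nM, with an interaction of -1.06 (adjusted p = 0.15, and 0.0227 with the experiment as a block). Irg1, which makes itaconate, rose at 0.03 nM from 17.7 and 57.0 to 305 and 353 CPM and was at 1958 and 2196, then 4092 and 4525 CPM at 10 nM, with an interaction of -2.09 (adjusted p = 0.111, and 0.0185 with the block). Ccl5 had an interaction of 1.75 (adjusted p = 0.191, and 0.0420 with the block), and Nos2, inducible nitric oxide synthase, of 3.74 (adjusted p = 0.0752, and 0.0154 with the block). Over the fits that left out 1 library, the value ran from 0.71 to 2.35 for Ccl5 and from 0.34 to 4.66 for Nos2. Il1a, Il10 and Ptgs2 had -0.50, -0.80 and -0.16 (adjusted p = 0.452, 0.138 and 0.846). Without the experiment 2 library at 0.03 nM 1 h, 10 of the 12 panel genes that were not called were called lower, among them Il1b at -1.64, Irg1 at -3.17 and Cxcl10 at -0.74 (adjusted p = 8.52e-05, 5.54e-06 and 0.00409). The remaining 2 were Ccl5 and Nos2. For Cxcl10 the value ran from -0.74 to 0.43 over the fits that left out 1 library.

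Genes that rose at 0.03 nM and fell or had no called change at 10 nM included receptors and co-stimulatory ligands. Tlr2, the receptor for bacterial lipoproteins, rose at 0.03 nM from 314 and 387 to 801 and 835 CPM and was at 1646 and 1635, then 1652 and 1565 CPM at 10 nM. Its interaction was -1.25 (SE 0.14, adjusted p = 0.000219), and the doses did not overlap at 2 h. Ch25h, which makes 25-hydroxycholesterol, rose at 0.03 nM from 0.602 and 1.17 to 5.88 and 6.65 CPM and was at 60.3 and 68.6, then 76.6 and 81.9 CPM at 10 nM, a change that was not called there but was the larger in CPM, with an interaction of -2.52 (SE 0.26, adjusted p = 0.000143). Traf3, an adaptor of TLR signalling, rose at 0.03 nM from 40.5 and 44.8 to 87.5 and 78.6 CPM and was at 64.8 and 69.9, then 61.5 and 66.3 CPM at 10 nM, so that the low dose was above the high dose at 2 h. Icosl (chromosome 10, 77532113 to 77542270 on mm9), the ligand of the T-cell co-stimulator ICOS, rose at 0.03 nM from 47.9 and 62.7 to 161 and 164 CPM and fell at 10 nM from 310 and 310 to 156 and 156 CPM. The doses lay close at 2 h, where their difference was not called, and its interaction was -2.55 (SE 0.16, adjusted p = 8.63e-06). Cd83, a marker of activated antigen-presenting cells, rose at 0.03 nM from 169 and 215 to 374 and 394 CPM and fell at 10 nM from 2341 and 2111 to 998 and 926 CPM, with an interaction of -2.21 (SE 0.16, adjusted p = 1.76e-05).

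The lower genes that rose at 0.03 nM and did not fall at 10 nM (91 genes) had a median exonic length of 2519 bases and a median genomic span of 13374 bases. All genes tested had medians of 2818 and 20830 bases, the genes called higher of 3395 and 25598 bases, and all genes called lower of 3368 and 24457 bases. The 41 lower genes that rose at 0.03 nM and fell at 10 nM had medians of 3285 and 21227 bases. Both classes rest on the 0.03 nM 2 h libraries, whose difference between experiments had a Spearman correlation of -0.610 with exonic length. By design of the class these 91 genes rose at 0.03 nM. At 1 h their level at 0.03 nM was a log2 median of 0.49 above untreated cells, against 0.00 for all genes tested.

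Signalling components and co-stimulatory genes held members of both directions. The shares called were 44.8% of TLR4 signalling components, 55.6% of co-stimulation and adhesion genes, 68.4% of anti-inflammatory regulators and 40.9% of apoptosis regulators. Over all genes tested the share was 19.7%. Of 29 TLR4 signalling components 8 were called lower and 5 higher, and Tirap, the adaptor that brings MyD88 to the receptor, was lower at 10 nM at 1 h (17.4 and 17.2 CPM against 22.5 and 24.6 CPM) and higher at 2 h (43.1 and 42.8 CPM against 28.1 and 23.5 CPM). Of 18 co-stimulation and adhesion genes 5 went each way. Cd200, a ligand of an inhibitory myeloid receptor, rose at 10 nM from 2.05 and 3.25 to 18.9 and 17.9 CPM with an interaction of 3.19 (SE 0.37, adjusted p = 0.000229), and Cd86 had 0.90 (SE 0.11, adjusted p = 0.000419). Of 19 anti-inflammatory regulators 6 were higher and 7 lower. Bcl6, a transcriptional repressor, rose at 0.03 nM from 67.2 and 85.1 to 139 and 131 CPM and fell at 10 nM from 212 and 212 to 76.5 and 94.8 CPM, so that the dose order turned over. Of 22 apoptosis regulators 8 were lower and 1 higher. Pmaip1, which encodes the death promoter NOXA, and Mcl1, which encodes the survival factor it binds, both fell at 10 nM, with interactions of -2.17 and -1.20, while Bcl2a1a, of the same family as Mcl1, rose at both doses and had -1.56.

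Chemokine and G protein-coupled receptors moved in both directions. The interaction was called for 43.8% of them, against 19.7% of all genes tested. Between 1 h and 2 h at 10 nM 13 of the 32 tested rose and 9 fell, and at 2 h 21 were higher and 7 lower at 10 nM than at 0.03 nM. Over all genes tested 20.1% rose and 20.4% fell at 10 nM, and at 2 h 25.1% were higher and 26.2% lower. In the interaction 11 were called lower and 3 higher, and 10 to 12 were lower and 1 to 4 higher when 1 library was left out (5 higher with the experiment as a block). Of the 11 called lower 5 fell at 10 nM and 6 rose at 0.03 nM. Lpar6 and Cxcr4 were among those that fell, to levels below those at 0.03 nM. Lpar6 (chromosome 14, 73637698 to 73640165 on mm9), a receptor for lysophosphatidic acid, fell at 0.03 nM from 84.1 and 76.8 to 50.4 and 42.3 CPM and at 10 nM from 27.9 and 28.5 to 2.07 and 2.12 CPM. Its interaction was -2.96 (SE 0.17, adjusted p = 6.58e-06), but in CPM the fall was larger at 0.03 nM, by 7.89 CPM. Cxcr4, the receptor of Cxcl12, fell at 0.03 nM from 158 and 129 to 88.8 and 75.7 CPM and at 10 nM from 73.1 and 69.6 to 5.41 and 7.18 CPM, with an interaction of -2.70 (SE 0.20, adjusted p = 2.17e-05). Of 28 macrophage identity genes 4 were lower and 2 higher, 21.4% called, near the 19.7% of all genes tested. Zfp36l2, which promotes mRNA decay, fell at 10 nM from 247 and 211 to 19.0 and 27.3 CPM and at 0.03 nM from 435 and 447 to 281 and 249 CPM. Frat1, called lower, had 2 counts over both 10 nM 2 h libraries, so no fold is given for it, and it was not called without the experiment 1 library at 10 nM 2 h (adjusted p = 0.0520).

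BMP and TGF-beta signalling had 7 of 21 members called lower and 2 higher (42.9% called, against 19.7% of all genes tested). Id3, an inhibitor of basic helix-loop-helix factors and a target of BMP signals, was at 181 and 223, then 158 and 180 CPM at 0.03 nM, and at 329 and 322, then 39.5 and 37.2 CPM at 10 nM, with an interaction of -2.83 (SE 0.16, adjusted p = 6.58e-06). Bmp2 fell at 10 nM from 50.3 and 53.2 to 6.36 and 7.66 CPM and at 0.03 nM from 19.6 and 21.1 to 14.6 and 15.2 CPM. For both genes 10 nM was above 0.03 nM at 1 h and below it at 2 h. Smaller counts came from cell cycle genes (2 higher and 4 lower of 29), heat shock and stress genes (3 and 4 of 26), sterol synthesis (0 and 1 of 19) and LXR targets (0 and 3 of 14). The shares called were 20.7%, 26.9%, 5.26% and 21.4%, so that cell cycle genes and LXR targets were near the 19.7% of all genes tested and sterol synthesis was below it. With 1 library left out, 2 to 7 cell cycle genes, 1 to 4 heat shock and stress genes and 1 to 4 LXR targets were lower. Of 15 reference genes 2 were called higher, Ywhaz at 0.44 and Actb at 0.39, and neither was called with library totals as the scale. None of 82 cytosolic ribosomal protein genes was called by edgeR, limma voom or DESeq2, and none had an unadjusted p below 0.05 in edgeR. Their median interaction was 0.30 in experiment 1 and -0.21 in experiment 2, and the cause of this difference was not tested. Markers of other cells gave 2 higher of 12 for neutrophils (Csf3r at 0.46 and Ngp at 0.94), 2 of 13 for stromal and endothelial cells (Pdgfrb at 2.07 and Kdr at 1.66) and 1 of 2 for T and NK cells (Lck, at 3.75 with 5.12 and 6.02 CPM at 10 nM 2 h). The shares called were 13.3% for reference genes, 16.7% for neutrophil markers and 15.4% for stromal and endothelial markers, all below the 19.7% of all genes tested. Leaving out single libraries ended the calls of Ywhaz, Actb, Csf3r, Ngp, Lck and Kdr, with adjusted p up to 0.102, 0.192, 0.121, 0.161, 0.0517 and 0.106; for Lck this was the experiment 1 library at 0.03 nM 1 h alone. Lists for dendritic, B, erythroid and mast cells had none of 13, 5, 2 and 3 called by these 3 tools, also with none at an unadjusted p below 0.05 in edgeR. The part of other cell types in the interaction was not tested.

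Seen from the dose, the interaction is the change of the dose effect between 1 h and 2 h. At 1 h 4256 genes (33.2%) were called between 10 nM and 0.03 nM, 2185 higher (17.0%) and 2071 lower (16.2%) at 10 nM, and at 2 h 6583 genes (51.4%), 3223 higher (25.1%) and 3360 lower (26.2%). Of the 1213 genes called higher in the interaction 541 had no dose effect called at 1 h, and 538 of these were higher at 10 nM at 2 h. Another 407 were already higher at 1 h, with a log2 median of 0.68 that grew to 1.65. The other 265 were lower at 10 nM at 1 h, with a median of -1.02, and had a median of 0.07 at 2 h. Of these, 80 ended higher at 10 nM, 108 had no dose effect called at 2 h and 77 were still lower. Of the 1317 genes called lower, 363 were higher at 10 nM at 1 h, with a median of 1.45 that shrank to 0.28, and 60 of these were below 0.03 nM at 2 h. Another 589 had no dose effect called at 1 h, and 578 of these were lower at 10 nM at 2 h. The other 365 were already lower at 1 h, with a median of -0.63 that grew to -1.55.

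Ccnj, which encodes cyclin J, had an early dip at 10 nM. It was at 8.05 and 8.84, then 8.98 and 7.65 CPM at 0.03 nM, and at 1.01 and 1.82, then 24.5 and 24.6 CPM at 10 nM, against 9.09 and 9.17 CPM in untreated cells. The high dose was thus lowest at 1 h and highest at 2 h, with log2 dose ratios of -2.56 and 1.56 and an interaction of 4.12 (SE 0.28, adjusted p = 1.13e-05). E130102H24Rik, an uncharacterised transcript, did the same, with 5.01 and 4.91, then 3.59 and 3.18 CPM at 0.03 nM and 0.462 and 0.608, then 7.74 and 5.88 CPM at 10 nM; its exons overlap Mir101a. Txnip, which binds thioredoxin and restrains glucose uptake, fell at 0.03 nM from 732 and 653 to 479 and 453 CPM and rose at 10 nM from 39.0 and 52.4 to 132 and 139 CPM, which was still below 0.03 nM, with an interaction of 2.14 (SE 0.18, adjusted p = 3.68e-05). Its exons overlap Gm15441 on the opposite strand.

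The Zfp zinc finger genes, DNA-binding proteins of which many are repressors, were mostly lower at 10 nM at both times. Of 301 tested, 192 (63.8%) were lower at 10 nM than at 0.03 nM at 1 h and 19 higher, against 16.2% of all genes tested lower and 17.0% higher. At 2 h 181 were lower and 29 higher, against 26.2% and 25.1% of all genes tested. At both times 154 were lower, against 1619 of all 12819 genes tested. The log2 median was -1.05 at 1 h and -0.90 at 2 h, against -0.01 and -0.03 over all genes. In the interaction 163 had a positive value, 56 were called higher and 24 lower, with a median of 0.13. Of the 56, 50 had been lower at 10 nM at 1 h, against 21.8% of all genes called higher. The share called was 26.6%, against 19.7% of all genes tested. Without the experiment 1 library at 10 nM 1 h the counts were 31 and 12. Library totals gave 37 lower, and the experiment 2 library at 0.03 nM 2 h left out also 37. Zfp319 was at 22.7 and 25.3, then 25.5 and 23.7 CPM at 0.03 nM, and at 8.15 and 10.0, then 51.3 and 54.2 CPM at 10 nM, with an interaction of 2.50 (SE 0.16, adjusted p = 1.00e-05). Zfp395 fell at both doses and further at 10 nM, from 28.4 and 26.7 to 4.10 and 4.75 CPM, with -2.0 (SE 0.16, adjusted p = 2.46e-05).

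**Figure D4:**
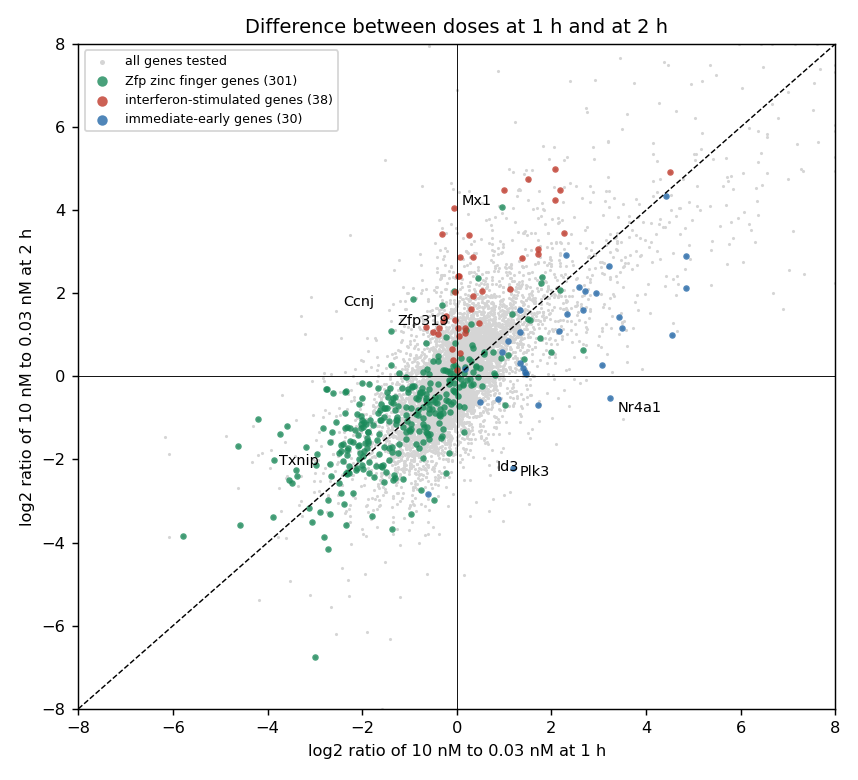
Log2 ratio of 10 nM to 0.03 nM at 1 h (x axis) and at 2 h (y axis) for all genes tested (grey), with Zfp genes in green, interferon-stimulated genes in red and immediate-early genes in blue; values past the axis ends are drawn at the edge, and a gene on the dashed line has no interaction. Interferon-stimulated genes lie above the line, with medians of 0.12 at 1 h and 2.05 at 2 h, immediate-early genes below it, with 2.23 and 1.03, and Zfp genes mostly in the lower left.

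The experiments gave similar interactions. Over the 10443 genes whose mean log2 CPM was at least 1, the interaction of experiment 1 and that of experiment 2 had a Pearson correlation of 0.728 and a Spearman correlation of 0.598 across genes, which are not independent replicates. All 2530 called genes had the same sign in both experiments, a property that the test selects for, against 65.5% of all genes tested. The interaction was related to exonic length in opposite ways, with a Spearman correlation of -0.246 in experiment 1 and 0.195 in experiment 2, and of -0.0341 in the fit to both. The genes were cut into 3 groups of 3481 by exonic length. In the group with the longest exons the median interaction was -0.18 in experiment 1 and 0.11 in experiment 2, and in the group with the shortest 0.13 and -0.13. In the fit to both, 6.29% of the short group were called higher and 7.64% lower, against 13.9% and 15.3% of the long group. With an offset for length, 1667 genes were called higher and 1548 lower. Among these were 1187 of the 1213 genes called higher and 1296 of the 1317 called lower in the main fit. The part of exonic length in single calls was not tested.

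**Figure D5:**
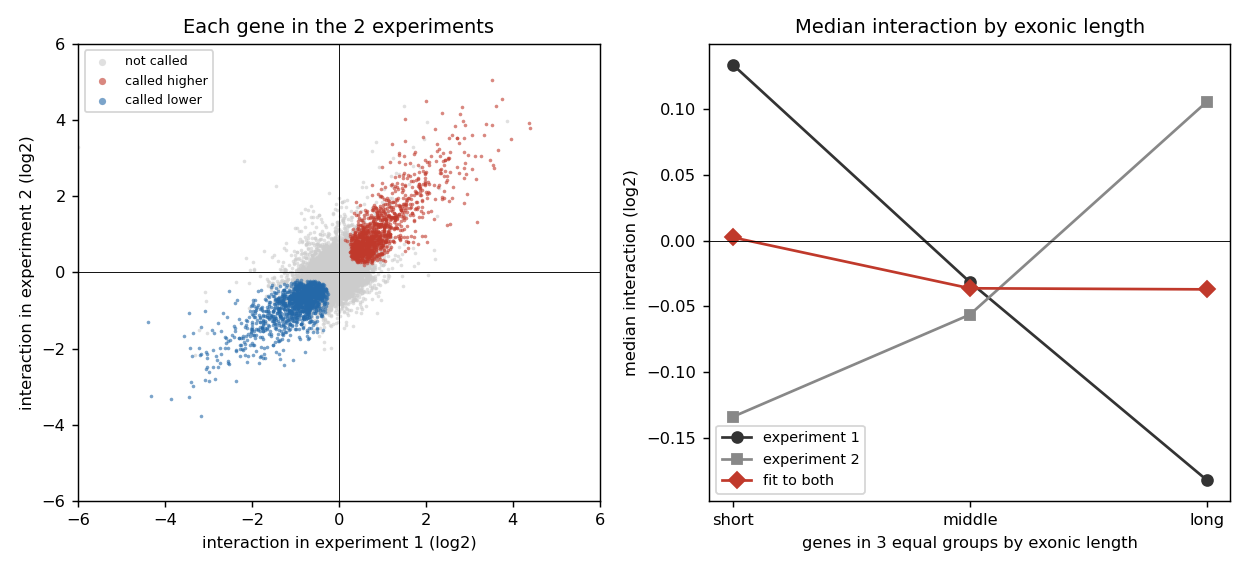
Left, interaction on the log2 scale in experiment 1 against experiment 2 for genes whose mean log2 CPM was at least 1, with genes called higher in red and lower in blue (values past the axis ends at the edge); right, median interaction in 3 equal groups of these genes by exonic length, for each experiment and for the fit to both. The experiments lie along a shared diagonal, and their medians by length run in opposite directions, from 0.13 to -0.18 and from -0.13 to 0.11.

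The threshold separated close values. Flywch1 was the last gene called, with an interaction of -0.47 (adjusted p = 0.04992), and Mbtd1 the first not called, with -0.72 (adjusted p = 0.05001). The log2 scale compares fold changes, and a gene can have a smaller fold and a larger change in CPM. On the linear scale none of the 1213 genes called higher and 64 of the 1317 called lower (4.86%) had a difference of differences of the opposite sign.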

How the data were processed

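Polyadenylated RNA of untreated and Kdo2-lipid A-treated bone-marrow-derived macrophages was sequenced in 10 libraries. The authors deposited raw counts, whole numbers of reads per gene, with mm9 gene positions and exonic length, per the file headers. They also deposited regularised log2 (rlog) values of the same genes, per the file headers. Per the submitters' processing notes, mm9 and the tools featureCounts 1.4.5-p1, TopHat2 2.0.11, DESeq2 and bcl2fastq 2.15.0.4 were used, in roles not given. The strand setting is not given in the sources used here, so overlapping genes on opposite strands cannot be separated.

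Counts of the 8 stimulated libraries were filtered with filterByExpr and scaled by TMM factors that were computed over all 10 libraries. They were fitted with edgeR 4.0.16 (R 4.3.3; quasi-likelihood, robust, 1 mean per group), with Benjamini-Hochberg adjustment over all 12819 genes and a threshold of 0.05. The script was tested on simulated data. CPM use the TMM-scaled totals. Genes were placed by the calls of their 2 time changes. Lists are described by counts and medians, with no set test. The labels assign each library to experiment 1 or 2, and libraries with the same number were taken as a set where a block was fitted. Differences between experiments correlated across genes between the 4 stimulated groups at 0.0460 to 0.201 (median 0.151; 4 of 6 above 0.1). The planned fit has no block; the block is an alternative, with other scalings and filters, limma 3.58.1, DESeq2 1.42.0, an exonic length offset, and each library left out. Members and lists were chosen with earlier results of these data known. Genes named are the 15 largest interactions each way among genes called, with mean log2 CPM of 1 or more and signs equal in both experiments; the 4 called members of each list with the lowest p (all where 5 or fewer); and a panel of cytokine and signalling genes. Of these 123 genes some are not used here. Promoters come from a RefSeq table on GRCm38.p6, matched by symbol for 10107 of the 12819 genes tested and 2039 of the 2530 called. Some genes are not reported here by name.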

Additional observations from a re-analysis of the deposited data

Results flagged for a closer look

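Each call of the interaction is itself a test that the time change differed between the doses, and 1213 genes were called higher and 1317 lower. Groups held 2 libraries each, too few to look for single outlying samples. Among the genes named by the rule, 27 had 2 effects that were each called in opposite directions. The rule takes many of its genes by large interactions or low p, which favours such genes.

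In 12 of these 27 genes the time change was called in opposite directions at the 2 doses. Among all 2530 genes called, 41 rose at 0.03 nM and fell at 10 nM, and 10 did the reverse. Myc had an interaction of -2.80, Trib1, a pseudokinase, of -2.77, Dusp4 of -2.65, Icosl of -2.55, Cd83 of -2.21, Bcl6 of -2.13, Cxcl1 of -2.13, Zfp719 of -1.40 and Birc3, an inhibitor of apoptosis, of -1.32. These 9 genes rose at 0.03 nM and fell at 10 nM. Irf8 at 1.73, Txnip at 2.14 and Hk2 at 2.22 fell at 0.03 nM and rose at 10 nM. Hk2 thus stands with the other late genes of 10 nM, and Txnip with those that dipped at 1 h.

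In 18 the difference between doses was called in opposite directions at 1 h and 2 h, with Irf8, Bcl6 and Dusp4 in both sets. The high dose was above at 1 h and below at 2 h in Nr4a1 at -3.76, Plk3 at -3.4, Id3 at -2.83, Gm16516 at -2.81, Bmp2 at -2.44, Btg2 at -2.42, Plau at -1.78, Zfp275 at -1.71, Mylip at -1.62, Tgif1 at -1.61 and Traf3 at -1.04. Plau encodes urokinase, Mylip a ubiquitin ligase for the LDL receptor, and Tgif1 a repressor of TGF-beta signalling. The high dose was below at 1 h and above at 2 h in E130102H24Rik at 4.21, Ccnj at 4.12, Zfp319 at 2.50 and Tirap at 1.18.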

How the results depend on the processing

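No gene called in one direction was called in the other in any of the alternative fits with a test; the linear CPM scale has no test, and there 64 of the genes called lower had the opposite sign. The counts of 1213 higher and 1317 lower became 946 and 1996 with library totals, 1265 and 1342 with the experiment as a replicate block, 1667 and 1548 with the exonic length offset, 1836 and 1696 with both offset and block, and 1268 and 1204 in DESeq2. Leaving out 1 library gave 740 to 1722 higher and 745 to 2008 lower, the fewest without the experiment 1 library at 10 nM 1 h (793 higher without the experiment 2 library at 10 nM 2 h); 51.2% of the higher and 49.8% of the lower calls held in every such fit. At 0.03 nM 182 to 1230 genes rose and 37 to 1380 fell; at 10 nM 1730 to 3160 rose and 1747 to 3248 fell. At 1 h 1507 to 2878 genes were higher and 1272 to 2589 lower at 10 nM. Of the pattern classes, genes called higher that rose at 10 nM with no call at 0.03 nM numbered 695 to 1243, those called lower that fell at 10 nM with no call at 0.03 nM 611 to 1751 (1693 with library totals), and those called lower that rose at 0.03 nM 77 to 250 (225 with offset and block). With the length offset and without the experiment 1 library at 0.03 nM 2 h, a combination chosen after seeing the data, the last class had 235. The cause was not tested.

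Of 111 named calls 80 held whichever library was left out. The block changed no named call except those given beside Hif1a, Il1b, Irg1, Ccl5 and Nos2. On the linear scale the difference of differences turned positive for Frat1 (1.65 CPM), Lpar6 (7.89), Cnr2 (0.289), Il6 (63.8), Il12b (126), Tnip1 (221), Ch25h (9.42), Cebpa (13) and Bcl2a1a (37.0), since that scale weighs levels and not folds. On rlog values 3 named calls were lost, Il6 at 0.03 (0.0291, adjusted p = 0.931), Il12b at -0.26 (adjusted p = 0.116) and Frat1 at -0.36 (adjusted p = 0.316). In limma voom 2 were lost, Il6 (adjusted p = 0.0724) and Ifnb1 (adjusted p = 0.0769). Depth limits genes of few counts, such as Frat1 and Csf2.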
